A study of Mus musculus with 12 samples.

Results

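The Toll-like receptors are germline-encoded sensors of microbial and damaged-cell products, and the 10 members of the family followed here were *Tlr1*, *Tlr2*, *Tlr3*, *Tlr4*, *Tlr5*, *Tlr6*, *Tlr7*, *Tlr8*, *Tlr9* and *Tlr13*. They were chosen by gene symbol, 10 of the 39017 genes in the deposited tables, and each symbol matched 1 identifier. RNA sequencing was performed on whole adrenals, trimmed of fat, from 6 control (Ctrl) and 6 βCat-GOF mice, with 1 library per mouse, and the mice are numbered 1 to 6 within each group in the order of their records. All mice were females, 10 to 11 weeks old, on a mixed sv129-C57Bl/6 background. Ctrl mice carried the genotype ASCre/+ and βCat-GOF mice the genotype ASCre/+ ::Ctnnb1fl(ex3)/+. Both groups therefore carried the Cre allele at the *Cyp11b2* (AS) locus, which is expressed in cells of the zona glomerulosa (zG), and only βCat-GOF mice carried the *Ctnnb1* allele that yields stabilized β-catenin after recombination. The comparison asks how the receptor genes and their pathway differ in a gland whose zG cells have gained β-catenin function.

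Toll-like receptors bind their ligands with leucine-rich repeats and signal through a cytoplasmic TIR domain that recruits adaptors such as Myd88 and Ticam1 (TRIF), leading to NF-κB and interferon regulatory factor activity. Tlr1, Tlr2, Tlr4, Tlr5 and Tlr6 act mainly at the cell surface on lipoproteins, lipopolysaccharide and flagellin, while Tlr3, Tlr7, Tlr8, Tlr9 and Tlr13 act in endosomes on nucleic acids. Macrophages and dendritic cells express most members, and *Tlr3* is also expressed by many non-immune cells.

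The depth was between 13484675 and 25625494 counts per library, and 3 counts in a library equal 0.117 to 0.222 CPM, the unit that divides counts by library size. In 3 pairs of the same group the mouse labels begin alike, and their libraries differed by a chi-square per degree of freedom of 39.2 to 42.8, within the range of 15.8 to 136 for the other 27 pairs of the same group. βCat-GOF mice 1 and 2, with 39.2, were each other's closest library, whereas Ctrl mice 1 and 2 and Ctrl mice 3 and 4 each had a closer library with another label. The labels do not say whether libraries of such a pair come from 1 animal, so each was counted as 1 mouse, and the fits without Ctrl mice 1 and 3 and βCat-GOF mouse 1 are given where they end a call. The tissue label was checked against markers. The 8 steroidogenic markers summed to between 55120 and 92690 CPM over the 12 mice and the 5 medullary markers to between 3802 and 12110 CPM, and none of either list was called between the groups.

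The mouse genes lie on several chromosomes (GRCm38, GENCODE M21). *Tlr3* is at chr8:45395665-45411080 on the minus strand, *Tlr2* at chr3:83836272-83841767 (minus), *Tlr4* at chr4:66827584-66930284 (plus), *Tlr5* at chr1:182954788-182976044 (plus) and *Tlr9* at chr9:106222598-106226883 (plus). *Tlr7* (chrX:167304929-167330558, minus), *Tlr8* (chrX:167242696-167264329, minus) and *Tlr13* (chrX:106143204-106160493, plus) are X-linked. *Tlr1* (chr5:64924679-64933563, minus) and *Tlr6* (chr5:64952031-64960097, minus) are neighbours, and 1076 bases of their transcripts aligned at 94.9% identity, which is 35.6% of the longest *Tlr1* transcript and 29.3% of the longest *Tlr6* transcript. The longest stretch without a difference was 229 bases of coding sequence, shown because a read or read pair that falls entirely within it cannot be assigned to 1 of the genes. It lies within 1 exon of each gene, at chr5:64925537-64925765 in *Tlr1* and chr5:64953828-64954056 in *Tlr6*, both on the minus strand.
Tlr1 and Tlr6 shared stretch: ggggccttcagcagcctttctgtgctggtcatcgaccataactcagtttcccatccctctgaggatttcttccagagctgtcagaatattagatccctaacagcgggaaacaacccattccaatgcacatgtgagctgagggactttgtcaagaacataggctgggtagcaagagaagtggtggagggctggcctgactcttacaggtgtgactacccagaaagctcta

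Of all windows of 50 bases along the longest transcripts, 15.3% of those in *Tlr1* and 12.5% of those in *Tlr6* also occurred in the other gene. Only uniquely mapping reads were counted, and the read length is not given in the sources used here, so how many reads of *Tlr1* and *Tlr6* were lost was not tested and the levels of both are uncertain. No exon base of *Tlr1*, *Tlr2*, *Tlr4* to *Tlr9* or *Tlr13* was covered by an exon of another gene. In *Tlr3*, 7.32% of the exon bases lie opposite exons of *Gm45542* on the other strand, and whether the counting used strand is not given in the sources used here.

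Upstream sequences of 250 bases from RefSeq (GRCm38.p6) were searched on both strands for 4 motifs, and 8 of the members had 10 such windows, 2 each for *Tlr1* and *Tlr6*. The core of the interferon-stimulated response element, GAAANNGAAA, occurred in 2.98% of all 32851 windows and in 1 of the 10 members' windows, that of *Tlr6*. The string GGGANNTTCC, 1 form of the NF-κB motif, occurred in 1.21% of all windows and in 1 member window, that of *Tlr3*. Other forms of this motif were not searched for. The *Tlr2* window holds ggggaattccc, which this string does not match. The PU.1 motif GAGGAA occurred in 23.3% of all windows and in 4 member windows, those of *Tlr1*, *Tlr8*, *Tlr9* and *Tlr13*. The TCF/LEF motif TCAAAG occurred in 13.8% of all windows and in 0 of the 10. The *Tlr3* and *Tlr6* sequences are shown as those with the rarer of the motifs, which are in capitals. The *Tlr3* stretch (chr8:45410572-45410601, minus strand) covers 30 bases around the match, all of them exonic in GENCODE. The *Tlr6* window (chr5:64959167-64959416, minus strand) has 0 exonic *Tlr6* bases in GENCODE and holds 2 overlapping matches on the opposite strand. These are matches of letters and not measured binding sites.
Tlr3: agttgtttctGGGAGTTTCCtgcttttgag
Tlr6: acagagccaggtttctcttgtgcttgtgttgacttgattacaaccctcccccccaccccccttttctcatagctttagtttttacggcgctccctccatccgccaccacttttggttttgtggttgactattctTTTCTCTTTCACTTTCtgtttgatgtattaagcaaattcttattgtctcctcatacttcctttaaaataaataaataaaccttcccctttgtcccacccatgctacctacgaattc

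*Tlr3* was the member that fell in βCat-GOF adrenals, and no member rose. With edgeR's quasi-likelihood test and Benjamini-Hochberg adjustment over 14953 genes, all 10 members passed the filter on low counts, 1 was called lower at an adjusted p under 0.05 and 0 were called higher. Over all genes tested, 1.52% were called lower and 2.16% higher. The log2 fold change was below 0 for 8 of the 10 members, against 7472 of all 14953 genes, and its median over the members was -0.50, against 0.000105 over all genes. At an unadjusted p under 0.05, 6 of the 10 were lower and 0 higher, against 10.7% and 9.73% of all genes. By the cut-offs of the study, a base mean above 100, a fold above 1.4 and the same adjusted p, *Tlr3* was again the 1 member called lower, with 0 higher (0.869% and 1.48% of all genes). It was also the 1 member whose groups did not overlap, against 1.16% of all genes that were lower without overlap and 1.61% that were higher.

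*Tlr3* (ENSMUSG00000031639), the endosomal receptor for long RNA duplexes, ranged from 389 to 499 normalized counts in Ctrl mice (median 407) and from 210 to 331 in βCat-GOF mice (median 290). Normalized counts are the counts of a library divided by its size factor. Every βCat-GOF mouse was below every Ctrl mouse, with βCat-GOF mouse 6 the lowest and Ctrl mouse 2 standing above the rest. The Ctrl mean was 419 ± 40.2 and the βCat-GOF mean 278 ± 48.3 (SD, n = 6 mice each). The fitted log2 fold change was -0.60 (SE 0.13), a fold of 0.661, at an edgeR adjusted p of 0.0215. Without any 1 mouse in turn, *Tlr3* was called in 12 of 12 fits, with log2 fold changes from -0.65 to -0.53 and adjusted p-values from 0.0111 to 0.0483. The highest of these p-values came without Ctrl mouse 2. Without Ctrl mice 1 and 3 and βCat-GOF mouse 1 together, the log2 fold change was -0.69 (adjusted p = 0.0273).

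**Figure D1:**
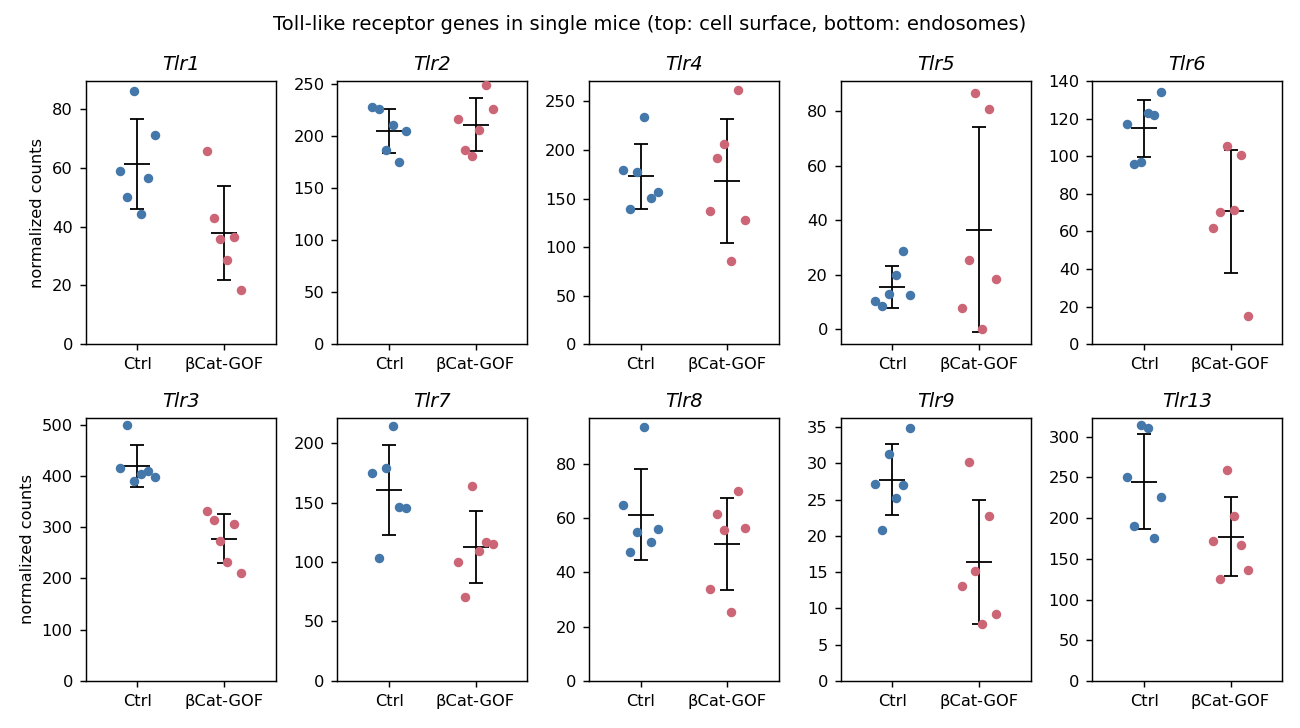
Normalized counts (vertical axis, from 0 except for *Tlr5*, whose error bar extends below it) of each receptor gene in 6 Ctrl mice (blue) and 6 βCat-GOF mice (red), 1 point per mouse, with the mean and SD as black bars. The *Tlr3* groups are apart, at 389 to 499 and 210 to 331, and the groups of the other 9 genes overlap.

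The other endosomal receptors had lower means in βCat-GOF adrenals, and none of them passed the adjusted test. *Tlr7*, a sensor of RNA with a single strand, ranged from 103 to 214 normalized counts in Ctrl (median 161) and from 70.2 to 164 in βCat-GOF mice (median 112). The groups overlapped, with 2 βCat-GOF mice below all Ctrl mice and Ctrl mice 2, 5 and 6 within the βCat-GOF range. *Tlr7* had a log2 fold change of -0.52 (SE 0.20, edgeR adjusted p = 0.173). *Tlr13*, which senses bacterial ribosomal RNA, ranged from 176 to 314 in Ctrl (median 239) and from 126 to 259 in βCat-GOF mice (median 169). Of the βCat-GOF mice 4 were below all Ctrl mice and βCat-GOF mouse 3 was within the upper part of the Ctrl range. Its log2 fold change was -0.48 (SE 0.20, adjusted p = 0.194).

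*Tlr9*, the sensor of unmethylated CpG DNA, was among the least abundant members. It ranged from 20.8 to 34.9 normalized counts in Ctrl (median 27.1) and from 7.91 to 30.2 in βCat-GOF mice (median 14.2). In 4 βCat-GOF mice it was below all Ctrl mice, while βCat-GOF mouse 2 was above the Ctrl median, and the log2 fold change was -0.73 (SE 0.30, adjusted p = 0.189). *Tlr8*, which in the mouse is closely related to *Tlr7*, ranged from 47.5 to 93.5 in Ctrl (median 55.4) and from 25.3 to 70.0 in βCat-GOF mice (median 55.9). The medians were close and the Ctrl mean was raised by Ctrl mouse 4, with a log2 fold change of -0.28 (SE 0.25, adjusted p = 0.564). Over the 5 endosomal receptors the log2 fold change was below 0 for 5 of 5, with a median of -0.52.

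Among the receptors of the cell surface, *Tlr1* and *Tlr6* had lower means, *Tlr2* and *Tlr4* had means close to those of Ctrl, and *Tlr5* had a higher mean that rested on 2 mice. None of the 5 was called, the log2 fold change was below 0 for 3 and their median was -0.04. *Tlr1* and *Tlr6* each pair with *Tlr2* at the surface to bind bacterial lipopeptides. *Tlr1* ranged from 44.1 to 86.1 normalized counts in Ctrl (median 57.8) and from 18.4 to 65.7 in βCat-GOF mice (median 36.1). In 5 βCat-GOF mice it was below all Ctrl mice, and only βCat-GOF mouse 1 was within the Ctrl range. The log2 fold change was -0.67 (SE 0.28, edgeR adjusted p = 0.189), and without βCat-GOF mouse 1 it was -0.91 at an adjusted p of 0.0469, which would add *Tlr1* to the members called lower.

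*Tlr6* ranged from 95.9 to 134 normalized counts in Ctrl (median 120) and from 14.9 to 106 in βCat-GOF mice (median 70.7). βCat-GOF mouse 6 was far below the others at 14.9, and βCat-GOF mice 3 and 5 were within the Ctrl range. *Tlr6* had a log2 fold change of -0.70 (SE 0.32, adjusted p = 0.229), and without βCat-GOF mouse 6 it was -0.50. *Tlr2*, the partner of both, ranged from 175 to 229 in Ctrl (median 208) and from 181 to 249 in βCat-GOF mice (median 211). The groups lay on top of each other, with a log2 fold change of 0.03 (SE 0.12, adjusted p = 0.918).

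*Tlr4*, the receptor for lipopolysaccharide, ranged from 139 to 234 normalized counts in Ctrl (median 167) and from 85.4 to 262 in βCat-GOF mice (median 164). The βCat-GOF values extended beyond the Ctrl range on both sides, with 3 mice below and 1 above it. The log2 fold change was -0.04 (SE 0.23, adjusted p = 0.940), and its sign turned when 1 of several mice was left out. *Tlr5*, the flagellin receptor, ranged from 8.34 to 28.7 in Ctrl (median 12.8) and from 0 to 86.8 in βCat-GOF mice (median 21.9). βCat-GOF mice 3 and 5 were at 86.8 and 80.8, above all Ctrl mice, while βCat-GOF mouse 4 had 0 counts in a library of 13484675, where a count of 0 allows up to 0.222 CPM. *Tlr5* had a log2 fold change of 1.24 (SE 0.68, adjusted p = 0.324), and it was 0.79 without βCat-GOF mouse 3.

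The remaining mouse members, *Tlr11* and *Tlr12*, sense profilin of protozoa in endosomes and were low. *Tlr11* had 14.5 ± 7.15 normalized counts in Ctrl and 12.5 ± 6.51 in βCat-GOF mice (SD, n = 6; log2 fold change -0.16, SE 0.42, edgeR adjusted p = 0.871). *Tlr12* had 30.5 ± 14.9 and 19.5 ± 11.7 (log2 fold change -0.61, SE 0.41, adjusted p = 0.425).

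Levels between genes were compared as CPM per kilobase of merged exons. In Ctrl adrenals *Tlr3* was highest at 4.10 ± 0.43, followed by *Tlr2* at 3.47 ± 0.34 and *Tlr13* at 2.89 ± 0.69 (SD, n = 6). *Tlr7* was at 2.00 ± 0.46, *Tlr4* at 1.58 ± 0.30 and *Tlr6* at 1.57 ± 0.20. *Tlr1* at 0.93 ± 0.23, *Tlr8* at 0.87 ± 0.24, *Tlr9* at 0.41 ± 0.07 and *Tlr5* at 0.16 ± 0.08 followed. In this order the mice of *Tlr6* and *Tlr1*, of *Tlr8* and *Tlr9* and of *Tlr9* and *Tlr5* did not overlap, while all other neighbours overlapped. The nucleic acid sensor *Tlr3* and the lipopeptide receptor *Tlr2* thus had the highest levels in the control gland, and their mice overlapped.

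In βCat-GOF adrenals the order began with *Tlr2* at 3.43 ± 0.53, followed by *Tlr3* at 2.64 ± 0.65 and *Tlr13* at 2.00 ± 0.48. *Tlr4* was at 1.48 ± 0.56, *Tlr7* at 1.34 ± 0.30, *Tlr6* at 0.93 ± 0.41 and *Tlr8* at 0.68 ± 0.23. *Tlr1* at 0.57 ± 0.29, *Tlr5* at 0.36 ± 0.36 and *Tlr9* at 0.23 ± 0.13 were the lowest, and every pair of neighbours overlapped. Summed over the 10 members, Ctrl mice had between 69.1 and 85.6 CPM (median 74.1) and βCat-GOF mice between 42.9 and 69.0 CPM (median 59.5). For the 5 endosomal receptors the sums were 41.7 to 53.4 CPM in Ctrl and 24.3 to 36.6 CPM in βCat-GOF mice. These sums include *Tlr3*, the only member whose groups did not overlap. *Tlr3* alone gave 19.9 to 25.9 CPM in Ctrl and 9.67 to 18.6 CPM in βCat-GOF mice, and no sum was computed without it. For the 5 surface receptors they were 27.0 to 32.3 CPM and 18.3 to 35.7 CPM, which overlap.

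**Figure D2:**
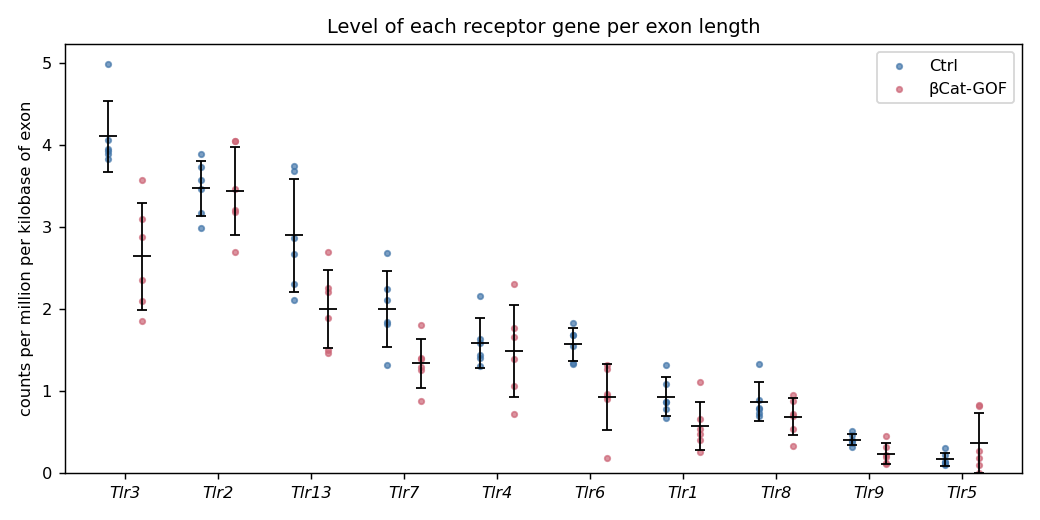
CPM per kilobase of merged exons (vertical axis, linear, from 0) of each receptor gene, ordered by the Ctrl mean, in 6 Ctrl (blue) and 6 βCat-GOF (red) mice, 1 point per mouse with the mean and SD. *Tlr3* leads in Ctrl at 4.10 and *Tlr2* leads in βCat-GOF adrenals at 3.43.

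The members did not rank the mice alike. Within the Ctrl group, mouse 2 had the lowest value of 6 members (*Tlr4* to *Tlr9*) and the highest of *Tlr3*. Within the βCat-GOF group, mouse 3 had the highest value of 4 members (*Tlr5*, *Tlr6*, *Tlr7* and *Tlr13*), mouse 4 the lowest of 4 (*Tlr4*, *Tlr5*, *Tlr8* and *Tlr9*) and mouse 6 the lowest of 3 (*Tlr1*, *Tlr3* and *Tlr6*). After subtraction of the group mean on the log2 CPM scale, the members most alike over the 12 mice were *Tlr4* and *Tlr8* (Pearson's r = 0.874), *Tlr4* and *Tlr5* (r = 0.846) and *Tlr7* and *Tlr13* (r = 0.799). The least alike were *Tlr3* and *Tlr7* (r = -0.463). By the same measure over all genes tested, the genes nearest to *Tlr3* were *Gm826*, *Sipa1l2* and *Srms* (r = 0.958, 0.957 and 0.953). Those nearest to *Tlr7* were *Gm15952*, *Nat2* and *Degs1* (r from 0.911 to 0.889), and those nearest to *Tlr13* were *Gm527*, *Ppp2r4* and *Glod4* (r from 0.900 to 0.896). All of these r-values are descriptions that share the 12 libraries. The nearest genes were picked as the highest r over all genes tested, so their r-values are raised by that selection.

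Macrophages are known to carry most of these receptors. Of their 15 tested markers, 13 had a log2 fold change below 0 and 2 above, against 7472 of all 14953 genes below 0. *Adgre1* (F4/80) and *Mrc1* (the mannose receptor CD206) were called lower, against 1.52% of all genes. *Adgre1* had 359 ± 76.9 normalized counts in Ctrl and 210 ± 59.95 in the βCat-GOF group (log2 fold change -0.78, SE 0.20, edgeR adjusted p = 0.0459), and *Mrc1* had 719 ± 91.8 and 545 ± 74.1 (-0.41, SE 0.11, adjusted p = 0.0495). *Lyz2* (lysozyme), the marker with the most counts, had 6040 ± 2446 and 4820 ± 1339 normalized counts and was not called (adjusted p = 0.468). The summed markers ranged from 560 to 1000 CPM in Ctrl and from 450 to 692 CPM in βCat-GOF mice, none of the 15 was at 0 throughout, and their median log2 fold change was -0.38. In whole adrenals, fewer cells of a type and less RNA per cell cannot be told apart.

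The mean log2 CPM of the 15 macrophage markers was therefore set against each member. Over the 12 mice, after subtraction of the group means, *Tlr13* (r = 0.901) and *Tlr7* (r = 0.810) followed it, *Tlr6* less so (r = 0.415), *Tlr3* ran the other way (r = -0.349), and the other members lay between -0.146 and 0.117. The pooled value of *Tlr4* (r = 0.117) joined unlike values of the groups. Within each group, 20 relations were computed (10 members, n = 6 mice), with exact permutation tests, two-sided. For *Tlr7* in Ctrl, r was 0.950 (exact permutation p = 0.00278, adjusted 0.0556) and rho 0.943 (exact p = 0.0167, adjusted 0.167), with r = 0.912 without the 2 mice farthest from the median, whereas in βCat-GOF mice r was 0.676 (exact p = 0.147, adjusted 0.421) and rho 0.543 (exact p = 0.297, adjusted 0.660).

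For *Tlr13*, r was 0.897 in Ctrl (exact permutation p = 0.0194) and 0.909 in βCat-GOF mice (exact p = 0.0208), both adjusted to 0.139. Its rho was 0.886 in each group (exact p = 0.0333, adjusted 0.167), and r without the 2 farthest mice was 0.986 and 0.932. For *Tlr3* in Ctrl, r was -0.840 (exact permutation p = 0.0347, adjusted 0.139) and rho -0.714 (exact p = 0.136, adjusted 0.454), and the relation rested on the 2 farthest mice, since r was -0.153 without them. In βCat-GOF mice r for *Tlr3* was -0.132 (exact p = 0.792, adjusted 0.852). For *Tlr4* in Ctrl, r was 0.836 (exact permutation p = 0.0306, adjusted 0.139) and rho 0.943 (exact p = 0.0167, adjusted 0.167), with r = 0.807 without the 2 farthest mice. In βCat-GOF mice r for *Tlr4* was -0.213 (exact p = 0.676, adjusted 0.852) and rho -0.0857 (exact p = 0.919), with r = 0.727 without the 2 farthest mice, and the difference between the groups was not tested. None of the 20 relations passed at an adjusted p under 0.05.

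**Figure D3:**
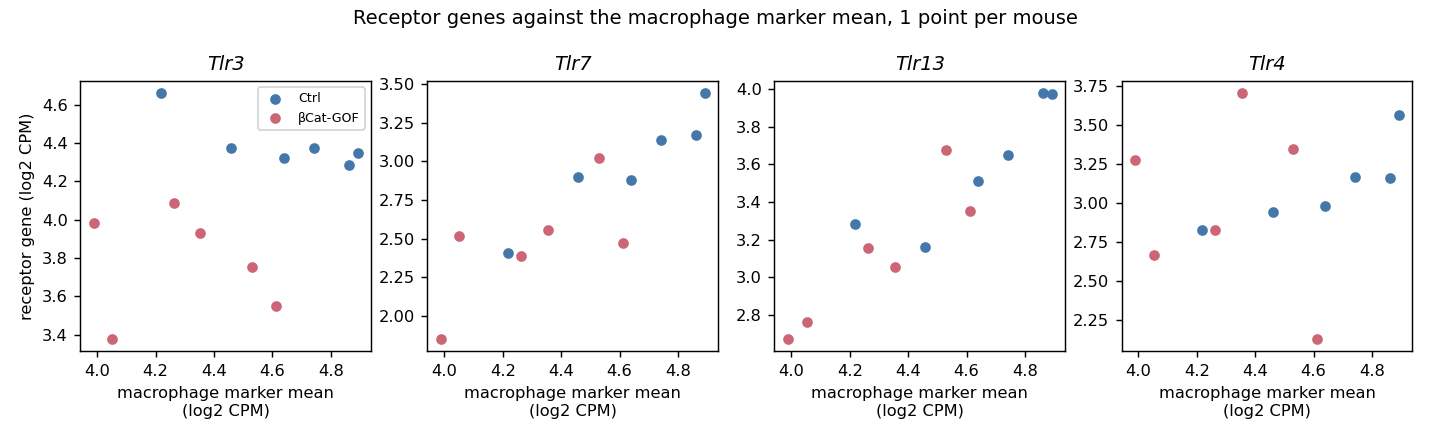
Log2 CPM of *Tlr3*, *Tlr7*, *Tlr13* and *Tlr4* (vertical axes, prior count of 2) against the mean log2 CPM of 15 macrophage markers (horizontal axes), 1 point per mouse, Ctrl blue and βCat-GOF red. In the plots, *Tlr7* and *Tlr13* rise along the marker mean across both groups, while the βCat-GOF points of *Tlr3* lie below all Ctrl points over the range of marker means that both groups share.

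With the macrophage marker mean as a covariate in the edgeR fit, the log2 fold change of *Tlr3* was -0.71 (SE 0.15), and it was still called at an adjusted p of 0.0439. Those of *Tlr7* and *Tlr13* were -0.11 (SE 0.19) and -0.05 (SE 0.14), nearer to 0 than the -0.52 and -0.48 without it. *Tlr1* (-0.60, SE 0.36), *Tlr9* (-0.86, SE 0.40), *Tlr6* (-0.45, SE 0.36) and *Tlr8* (-0.23, SE 0.34) kept values below 0, and *Tlr2* was at 0.00149. *Tlr4* moved to 0.09 and *Tlr5* to 1.55, and no member other than *Tlr3* was called. The share of all genes called in this fit is not given here. The marker mean itself differed between the groups, at 4.635 log2 CPM in Ctrl and 4.299 in βCat-GOF mice. The difference between the values of a gene with and without the covariate was not tested.

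**Figure D4:**
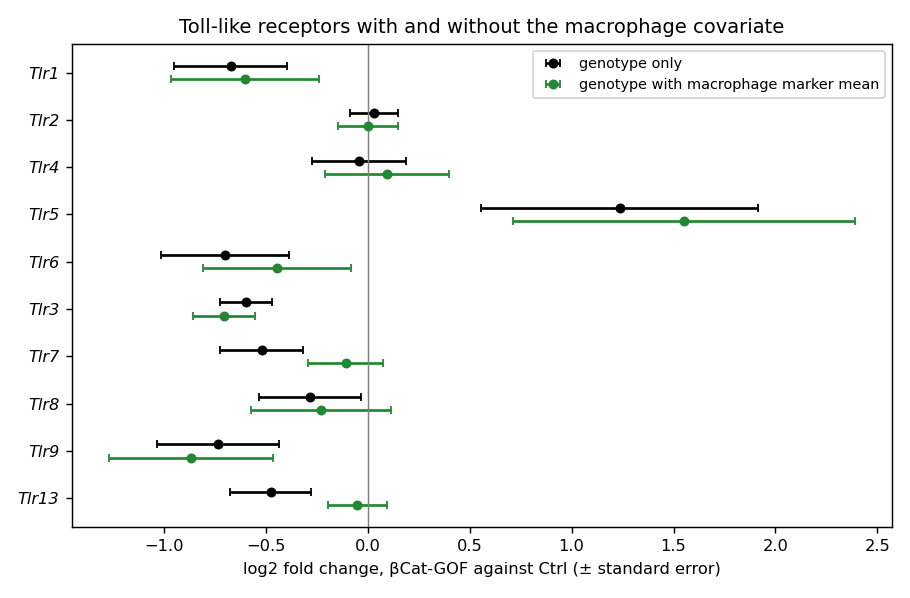
Log2 fold change of each receptor gene, βCat-GOF against Ctrl (horizontal axis, bars are ± 1 standard error), from the edgeR fit with genotype alone (black) and with the macrophage marker mean added (green). *Tlr3* was at -0.60 and -0.71, while *Tlr7* moved from -0.52 to -0.11 and *Tlr13* from -0.48 to -0.05.

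Markers of other immune cells were also measured. Of 8 dendritic cell markers tested, 5 were below 0 and 3 above, against 7472 of all 14953 genes below 0. Only *Itgax* (CD11c) was called lower, from 211 ± 45.6 to 80.9 ± 19.4 normalized counts (log2 fold change -1.39, SE 0.20, edgeR adjusted p = 0.0020). The summed list ranged from 31.1 to 38.2 CPM in Ctrl and from 19.5 to 33.0 CPM in βCat-GOF mice. Of the 5 T cell markers only *Cd4* passed the filter, and it was called lower, from 24.2 ± 9.52 to 9.49 ± 2.51 (-1.35, SE 0.32, adjusted p = 0.0330), with sums of 1.95 to 3.28 and 0.882 to 1.88 CPM. Of the 4 B cell markers tested, 4 were below 0 and 0 were called (sums of 2.41 to 6.21 and 0.847 to 6.87 CPM). Of the 2 neutrophil markers tested 0 were called, and *Ly6g* was at 0 in all mice. No mast cell, endothelial, fibroblast or adipocyte marker was called (0 of 5, 6, 5 and 3 tested). The part of these cells in the members' values was not tested, and only the macrophage mean was fitted as a covariate.

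Genes of the rest of the pathway were called in both directions. Of 67 further genes, 60 passed the filter, and 2 were called lower and 3 higher, against 1.52% and 2.16% of all genes. At an unadjusted p under 0.05, 12 of the 60 were lower and 7 higher, against 10.7% and 9.73% of all genes. Of the 60, 29 had a log2 fold change below 0 and 31 above, and their median was 0.02. *Sarm1* and *Irf7* fell and *Relb*, *Tnfaip3* and *Ptgs2* rose.

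The co-receptors and ligand-binding partners gave 5 of 6 log2 fold changes below 0 and no call. *Cd180* (RP105, a Tlr4-like surface protein) had 79.3 ± 20.9 normalized counts in Ctrl and 43.2 ± 17.9 in βCat-GOF mice (SD, n = 6; log2 fold change -0.87, SE 0.31, edgeR adjusted p = 0.138). DESeq2, an alternative test, called *Cd180* lower. *Ly96* (MD-2), which holds lipopolysaccharide on Tlr4, had 282 ± 38.1 and 229 ± 45.5 (-0.31, adjusted p = 0.239), while *Cd14*, which delivers it, had 220 ± 48.3 and 299 ± 72.5 (0.43, adjusted p = 0.203). Of the 7 genes for folding, trafficking and cleavage, 3 were below 0 and 0 were called. *Unc93b1*, the chaperone that brings endosomal receptors to their compartment, had 1816 ± 219 and 1496 ± 190 (-0.29, adjusted p = 0.143). *Ctss*, a lysosomal protease that can process them, had 2261 ± 592 and 1594 ± 320 (-0.51, adjusted p = 0.111), and *Hsp90b1*, the chaperone gp96, had 19898 ± 2093 and 24106 ± 4845 (0.27, adjusted p = 0.281).

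Among the 5 TIR adaptors *Sarm1* fell. It is the TIR protein with NAD-cleaving activity that dampens TRIF signaling and acts in axon degeneration. It ranged from 120 to 182 normalized counts in Ctrl (median 172) and from 56.4 to 117 in βCat-GOF mice (median 89.2). Every βCat-GOF mouse was below every Ctrl mouse, with a log2 fold change of -0.91 (SE 0.18, edgeR adjusted p = 0.0156). Of the 16 kinases and ubiquitin ligases, 0 were called, 7 were below 0 and 9 above. The lowest unadjusted p-values belonged to *Irak4*, the first kinase recruited by Myd88 (-0.27, adjusted p = 0.176), to its relative *Irak2* (0.34, adjusted p = 0.195) and to *Btk* (-0.48, adjusted p = 0.219).

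Of the 9 transcription factors 1 fell and 1 rose. *Irf7*, the interferon regulatory factor that acts downstream of Tlr7 and Tlr9, ranged from 540 to 896 normalized counts in Ctrl (median 704) and from 340 to 539 in βCat-GOF mice (median 462). The groups did not overlap, although the highest βCat-GOF mouse and the lowest Ctrl mouse lay side by side at 539 and 540, and the log2 fold change was -0.67 (SE 0.14, adjusted p = 0.0152). *Relb*, an NF-κB subunit of the non-canonical arm, ranged from 411 to 518 in Ctrl (median 449) and from 543 to 707 in βCat-GOF mice (median 588). All βCat-GOF mice were above all Ctrl mice, with a log2 fold change of 0.41 (SE 0.09, adjusted p = 0.0285).

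Of the 11 inhibitors *Tnfaip3* (A20), an enzyme that removes ubiquitin and restrains NF-κB, rose. It ranged from 96.1 to 139 normalized counts in Ctrl (median 123) and from 149 to 250 in βCat-GOF mice (median 187). The groups were apart, with a log2 fold change of 0.70 (SE 0.16, edgeR adjusted p = 0.0264). Of the 13 output genes 6 passed the filter, and *Ptgs2* (COX-2), the enzyme that starts prostaglandin synthesis, rose. It ranged from 19.6 to 40.3 normalized counts in Ctrl (median 29.2) and from 14.2 to 486 in βCat-GOF mice (median 108). It was above the Ctrl range in 5 mice and below it in 1, with a log2 fold change of 2.42 (SE 0.63, adjusted p = 0.0498).

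The pathway calls held to different extents. Without each mouse in turn, *Sarm1* and *Irf7* were called in 12 of 12 fits, *Tnfaip3* in 9, *Relb* in 8 and *Ptgs2* in 3. The call on *Tnfaip3* was lost without Ctrl mouse 5, Ctrl mouse 6 or βCat-GOF mouse 6 (edgeR adjusted p up to 0.0614), and that on *Relb* without Ctrl mouse 2, 4 or 6 or βCat-GOF mouse 2 (adjusted p up to 0.0735). Of the fits with 1 mouse left out, *Ptgs2* passed only in those without βCat-GOF mouse 1, 3 or 4, and without βCat-GOF mouse 2 its log2 fold change was 1.68 (adjusted p = 0.0930). Without Ctrl mice 1 and 3 and βCat-GOF mouse 1, whose labels repeat a stem, *Sarm1* was still called (log2 fold change -1.09, adjusted p = 0.0103), and the calls on *Irf7* (-0.50, adjusted p = 0.0768), *Relb* (0.43, 0.0639), *Tnfaip3* (0.66, 0.0760) and *Ptgs2* (2.68, 0.0947) were lost. With the macrophage marker mean as a covariate none of these 5 was called. The share of all genes called in that fit is not given here, so the lost calls cannot be set against it. The log2 fold changes were -0.98 for *Sarm1* (SE 0.23, edgeR adjusted p = 0.0586) and -0.56 for *Irf7* (SE 0.16, adjusted p = 0.105). They were 0.40 for *Relb* (SE 0.12, adjusted p = 0.113), 0.79 for *Tnfaip3* (SE 0.19, adjusted p = 0.0626) and 1.31 for *Ptgs2* (SE 0.93, adjusted p = 0.470). Each of these standard errors was larger than that without the covariate.

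**Figure D5:**
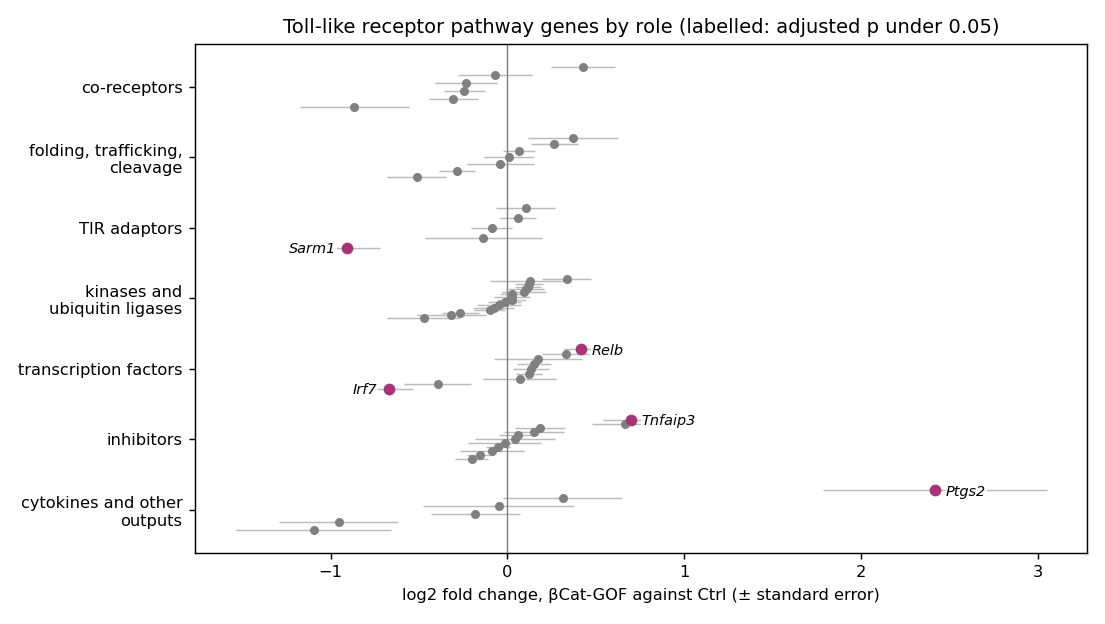
Log2 fold change of the 60 further pathway genes tested, βCat-GOF against Ctrl (horizontal axis, bars are ± 1 standard error), grouped by role (vertical axis). Each point is a gene, and the 5 named in purple passed the edgeR test at an adjusted p under 0.05, with *Sarm1* at -0.91, *Irf7* at -0.67, *Relb* at 0.41, *Tnfaip3* at 0.70 and *Ptgs2* at 2.42.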

How the data were processed

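Whole-adrenal RNA of 12 mice was sequenced after TruSeq mRNA library preparation, 1 library per mouse. The authors aligned reads to mm10 with STAR, assigned uniquely mapping reads to genes with featureCounts 1.4.4, and deposited the raw counts. A signal table that the authors deposited beside them holds the counts divided by 1 factor per library, which the submitters' processing notes link to DESeq2 1.6.3. The annotation release and the strand setting are not given in the sources used here. No column was left unmapped (0 columns).

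Here, counts were tested with edgeR 4.0.16 under R 4.3.3, by the two-sided quasi-likelihood test after TMM scaling and filterByExpr, and p-values were adjusted after Benjamini-Hochberg over the genes kept. DESeq2, the tool of the study, served as an alternative (version 1.42.0). A standard error is the size of the log2 fold change divided by the square root of F. Normalized counts are counts divided by DESeq2 size factors, and log2 CPM used a prior count of 2. Groups followed the genotype labels, which pair no mice. The edgeR p-values set the difference between the genotypes against the spread between these libraries, each counted as 1 mouse. Further alternatives were DESeq2's size factors in edgeR, no filter, at least 10 counts in every mouse, no mice whose label repeats a stem, a macrophage covariate, each mouse left out and the longest transcript as length. The factors of the deposited signal were added after the data were seen.

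The members and gene lists were chosen with earlier results of these data known. Named were the 10 members, *Tlr11* and *Tlr12*, in each pathway list the genes called or otherwise at most 3 with the lowest unadjusted p, in marker lists the genes called and in the macrophage list also the gene with the most counts, and the 3 genes nearest to *Tlr3*, *Tlr7* and *Tlr13*. Nearest genes of the other members and the most abundant genes of the other marker lists are not reported. Copies were searched for with blastn 2.17.0. Scripts were tested on simulated data and ran in Python 3.11.15 with matplotlib 3.10.9.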

Additional observations from a re-analysis of the deposited data

Results flagged for a closer look

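In 20 groups of 6 mice, 1 per member and genotype, a single mouse stood apart from the rest in 2, and chance marks about 1 in 20 groups. *Tlr3* in Ctrl mouse 2 had 499.3 normalized counts, against 389.4 to 415.9 in the other Ctrl mice. *Tlr8* in Ctrl mouse 4 had 93.48 normalized counts, against 47.51 to 64.63 in the others. Without Ctrl mouse 2 the log2 fold change of *Tlr3* was -0.54 (edgeR adjusted p = 0.0483). Without Ctrl mouse 4 that of *Tlr8* was -0.12.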

How the results depend on the processing

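*Tlr3* was called lower under every alternative run, with 1 member called lower and 0 higher except without βCat-GOF mouse 1. Leaving out each mouse in turn gave 1 to 2 members called lower and 0 called higher, 1 lower past the study's cut-offs and 0 higher, 2 pathway genes called lower, and 0 to 5 called higher. The 0 came without Ctrl mouse 6 and the 5 without βCat-GOF mouse 1, and 1 was left without any 1 of Ctrl mice 2, 4 and 5 or βCat-GOF mice 2 and 6. Without the mice whose label repeats a stem, 1 pathway gene was called lower (*Sarm1*) and 1 higher (*Traf4*, which is not among the 3 rises reported), and with the macrophage covariate 0 were lower and 1 higher (*Traf4* again). The log2 fold change of *Tlr4* reversed to 0.035 without the mice with a repeated stem and to 0.0947 with the covariate, and ranged from -0.202 to 0.0854 with 1 mouse left out. That of *Tlr2* ranged from -0.0144 to 0.0736 with 1 mouse left out. Per kilobase of the longest transcript, the Ctrl level of *Tlr4* was 2.16 and that of *Tlr3* 4.85. That of *Tlr7* was 2.09, so *Tlr4* and *Tlr7* changed places in the Ctrl order. Beyond fewer mice or other lengths, the cause was not tested. DESeq2 called *Tlr3* lower (adjusted p = 0.000325) and no other member, with 3 pathway genes lower and 4 higher. Beyond the pathway genes called in the main fit, these were *Cd180* (lower) and *Traf4* (higher). Shares of all genes called are given for the main fit only. The counts of calls under the alternatives therefore cannot be set against a share of their own fit. Leaving out βCat-GOF mouse 5, whose label begins with another number, is 1 of the fits above. No paired analysis was possible because the labels give no numbers shared between groups. Depth limits *Tlr5* and *Tlr9*, whose means were below 40 normalized counts in both groups. It also limits *Tlr1* in βCat-GOF mice, where the mean was 37.95, against 61.2 in Ctrl.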
